A study of Mus musculus with 3 samples.

Results

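Clusters 0 and 2 are the 2 groups of oligodendrocyte-like cells that the authors separated among single cells sorted from the mouse subventricular zone, the stem cell niche that lines the lateral ventricle. They were compared here on the plates that hold enough cells of both. Plate 2 held 15 cells of cluster 0 and 10 of cluster 2, and plate 3 held 26 and 22, which makes 73 of the 149 cells kept in the study. Cells were assigned by the cluster number and the library name in the authors' table per cell. Plate 1 held 1 cell of cluster 0 and 3 of cluster 2, and these did not enter the comparison.

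All cells came from this zone in male mice of the strain C57BL/6J supplied by Envigo, 8 per experiment, for which the labels name no treatment and no age. After dissociation with trypsin, cells bearing the surface transporter GLAST were enriched on magnetic beads and sorted into plates for SORT-seq, a method that counts the 3′ ends of transcripts with molecular identifiers. Both clusters therefore share strain, sex, tissue and selection, and differ in no treatment. Myelin was removed in 2 of the 3 experiments, which the labels do not name, so this step cannot be told apart from the plate.

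Oligodendrocytes wrap axons in myelin, a stack of membrane rich in cholesterol and glycolipids and in proteins such as myelin basic protein. They arise from Pdgfra-positive precursors through committed precursors and newly formed cells, marked among others by Enpp6, and then become myelin-forming and mature cells. Mature oligodendrocytes of the mouse brain fall into several expression states, some of them rich in Ptgds, the enzyme that makes prostaglandin D2.

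Each plate was summed by cluster, and the 4 sums held 191053 and 235862 transcripts for cluster 0 and 136222 and 196489 for cluster 2, on plates 2 and 3 respectively. Levels below are transcripts scaled to the total of such a sum (CPM, the usual unit) unless a single cell is named, and each set of 4 values is ordered as cluster 0 on plates 2 and 3, then cluster 2 on plates 2 and 3. The cell with most transcripts in cluster 2 on plate 2 supplied 27.5% of its sum, against 8.12% to 13.1% in the others. The plates are the replicates, n = 2. The series design places the plates on separate days, and which mice supplied a plate is not stated, so p-values measure the spread between these sums. The clusters were drawn by the authors from these same expression values, so a gene that differs describes how they part and is no independent evidence that they differ.

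Both clusters carried the oligodendrocyte identity, although the samples are labelled as neural stem cells. All 12 oligodendrocyte lineage markers were measured in both. Of these, 1, Mal, passed the test between the clusters and was higher in cluster 2, and the other 11 did not pass. That is 8.33%, beside 3.01% of all tested genes, and 9 of the 12 were lower in cluster 0. Mbp, for myelin basic protein, stood at 8199, 8586, 7083 and 7019 CPM, a log2 difference of 0.16 ± 0.12 (SE; edgeR adjusted p = 0.688). Every cell of both clusters on plates 2 and 3 had transcripts of Mbp, Mag, Mog, Mobp, Cnp and Cldn11.

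Markers of other cell types were scarce. The 12 microglia markers made up 0.0256%, 0.0288%, 0.0235% and 0.0127% of the transcripts in the sums, while in single cells of the microglia-like cluster 1 the median was 4.48% on plate 2 and 3.81% on plate 3. The astrocyte or quiescent stem cell list reached at most 0.104%, and the lists for dividing, neuronal, vascular and ependymal cells stayed at or below 0.0372%. Dcx, Rbfox3 and Cdk1, which mark neuroblasts, neurons and dividing cells, were at 0 in all 4 sums. Slc1a3, which encodes GLAST, the protein the cells were selected on, stood at 105, 161, 29.4 and 81.4 CPM. It was detected in 10 of 15 and 22 of 26 cells of cluster 0 and in 3 of 10 and 9 of 22 cells of cluster 2, and its log2 difference of 1.16 ± 0.47 did not pass the test (edgeR adjusted p = 0.189).

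Between the clusters, 99 of 3293 tested genes were called, which is 3.01%. A call needs an adjusted p under 0.05 in edgeR's quasi-likelihood test with plate as a block, and the same direction on both plates. Of these, 46 (1.4% of tested genes) were higher in cluster 0 and 53 (1.61%) were higher in cluster 2. The genes higher in cluster 0 had a median difference of 3.06-fold and a median level of 190.0 CPM, and those higher in cluster 2 a median of 2.09-fold at 471 CPM. At least a 2-fold difference on both plates was found for 27 and 18 of them. Over all tested genes the median log2 difference was -0.01, and 1871 genes, 56.8%, had the same sign on both plates. The median level of all tested genes was 97.1 CPM, below the medians of called genes in both directions. Shares of called genes in the lists below were not compared at equal level. DESeq2, run as an alternative, called 18 genes, 9 in each direction. Higher in cluster 0 were Sepp1, Pmp22, S100b, Gng11, Slco3a1, Serpinb1a, Hapln2, Anln and Apod. Higher in cluster 2 were Ptgds, Mal, Opalin, Tspan2, Plekha1, Prickle1, Cd81, Grb14 and Rn45s. All other called genes named in this report were not called by DESeq2. A fit over all clusters called 9, namely Sepp1, Pmp22, S100b, Gng11, Slco3a1, Serpinb1a, Enpp6, Cntn1 and Ptgds. Without the cell of most transcripts in each sum 68 genes were called, 29 higher in cluster 0 and 39 higher in cluster 2.

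**Figure D1:**
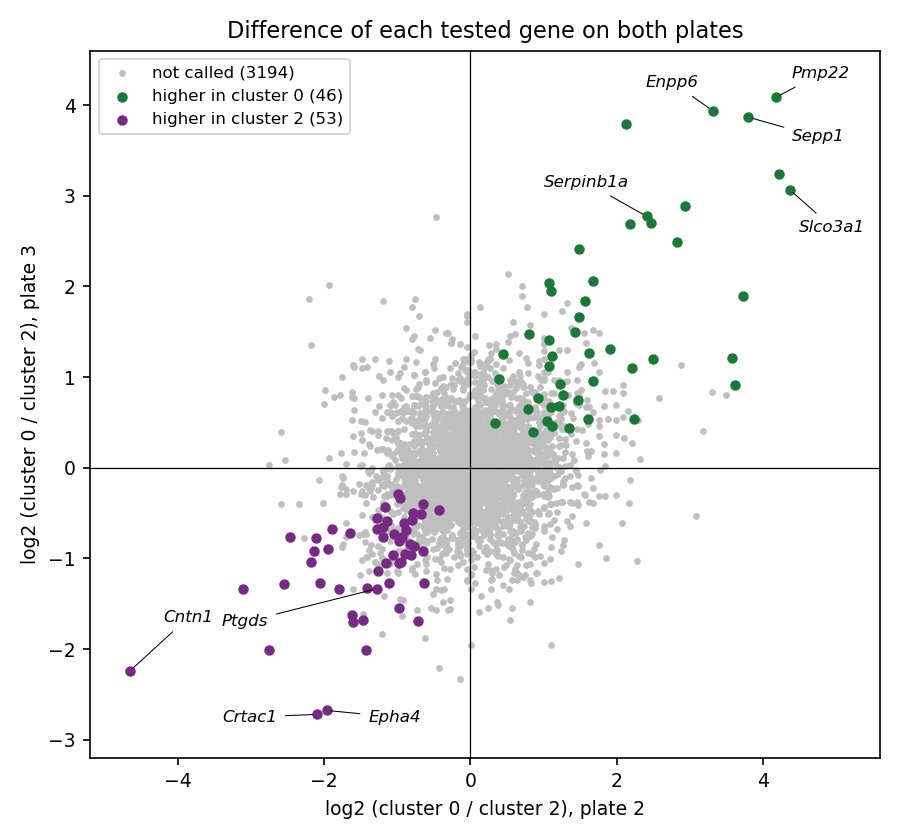
Log2 difference between clusters 0 and 2 on plate 2 (x axis) and plate 3 (y axis) for each of the 3293 tested genes; positive is higher in cluster 0, grey points were not called, and green and purple points are the 46 and 53 called genes. Pmp22, Enpp6, Sepp1 and Slco3a1 lie above 3 on both axes, and Cntn1 lies below -2 on both; called genes lie in the 2 quadrants of equal sign because a call requires it.

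The separation was clearest in genes that cluster 0 expressed and cluster 2 nearly lacked. Enpp6 (chr8:46986887-47096762, plus strand; all gene coordinates are from the GENCODE annotation of GRCm38) encodes a choline phosphodiesterase and is a classical marker of newly formed oligodendrocytes. It stood at 173 and 157 CPM in cluster 0 and at 7.34 and 0 CPM in cluster 2. Cluster 0 held 70 Enpp6 identifiers and cluster 2 held 1, a ratio per total of 54.3 (95% exact interval for counting error 9.43 to 2175; edgeR adjusted p = 2.57e-09). The gene was detected in 8 of 15 and 15 of 26 cells of cluster 0, and in 1 of 10 and 0 of 22 cells of cluster 2. For 0 of 22, a limit of 3 in 22 allows a share of up to 13.6%, and the exact 95% interval reaches 15.4%. DESeq2 did not call Enpp6 (adjusted p = 0.0672).

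Slco3a1 (chr7:74275419-74554780, minus strand) encodes an organic anion transporter. Its levels were 372, 216, 7.34 and 15.3 CPM, a log2 difference of 4.38 ± 0.53 (edgeR adjusted p = 1.03e-13). It was detected in 10 of 15 and 14 of 26 cells against 1 of 10 and 3 of 22. Serpinb1a (chr13:32842092-32851185, minus strand), an inhibitor of serine proteases, stood at 503, 471, 80.8 and 56.0 CPM, a log2 difference of 2.76 ± 0.32 (edgeR adjusted p = 2.02e-14), with transcripts in 14 of 15 and 21 of 26 cells against 2 of 10 and 8 of 22. For both genes the lower sum of cluster 0 was several times the higher sum of cluster 2.

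Cell by cell, Enpp6, Slco3a1 and Serpinb1a were never all absent from a cluster 0 cell of plates 2 and 3. Every one of the 41 cluster 0 cells had a transcript of at least 1 of them, and all 3 were found together in 6 of 15 and 10 of 26 cells. In cluster 2 no cell had all 3, and 7 of 10 and 13 of 22 cells had none. The shares also differed at equal depth. Cells were thinned to 6000 identifiers each, which keeps 14, 21, 8 and 16 cells. Enpp6 was then found in 46.4% and 54.9% of kept cluster 0 cells and in 0% of kept cluster 2 cells on both plates. The mean difference of 50.6 percentage points came to 26.8 at 3000 identifiers. The 1 cluster 2 cell with Enpp6, on plate 2, held under 6000 identifiers and was left out. At 3000 identifiers that cell was kept, and the share on its plate was 9.72%. Thinned Serpinb1a shares were 83.4%, 76.7%, 25.0% and 24.6%. The microglia-like cells, a type that should lack these genes, had none of the 3 in 18 cells of plate 2 and 9 of plate 3, at a median of 3668 and 2467 identifiers per cell against 11187 and 8073 in cluster 0.

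Cntn1 (chr15:92051165-92341967, plus strand) marked the opposite side. It encodes contactin 1, a membrane-anchored adhesion protein at contacts of axons and glia. Levels were 0 and 21.2 CPM in cluster 0 and 242 and 132 CPM in cluster 2, a log2 difference of -3.95 ± 0.58 (edgeR adjusted p = 3.25e-09). It was detected in 0 of 15 and 3 of 26 cells of cluster 0 against 6 of 10 and 10 of 22 cells of cluster 2, and thinned shares were 0%, 10.5%, 62.6% and 50.6%. No microglia-like cell had it. DESeq2 did not call Cntn1 (adjusted p = 0.864).

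**Figure D2:**
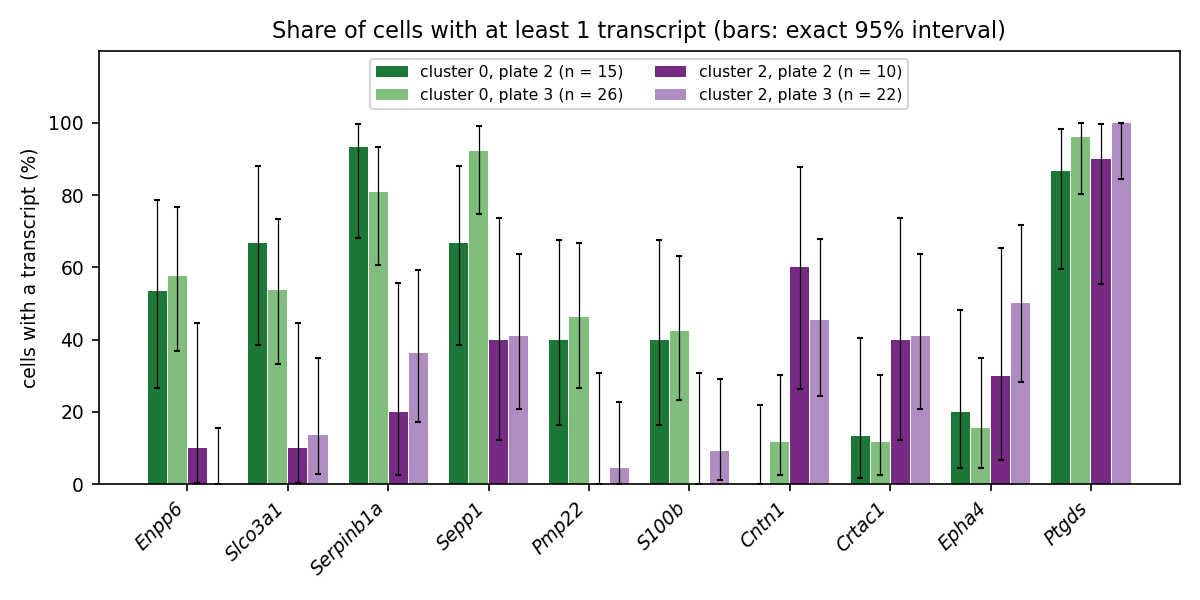
Share of cells with at least 1 transcript (y axis, percent) for 10 genes (x axis), by cluster and plate; bars are shares of 15, 26, 10 and 22 cells and error bars are exact 95% binomial intervals for counting error. Enpp6, Slco3a1, Serpinb1a, Pmp22 and S100b were found mostly in cluster 0, and Cntn1 and Crtac1 mostly in cluster 2. Epha4 was found in 4 of 26 cells of cluster 0 and 11 of 22 of cluster 2 on plate 3. On plate 2 it was found in 3 of 15 and 3 of 10 cells, with overlapping intervals. Ptgds was found in 86.7% to 100% of cells of every bar.

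Ptgds (chr2:25466709-25470046, minus strand) was abundant in both clusters and higher in cluster 2. Its summed levels were 3366 and 3928 CPM in cluster 0 and 7698 and 9345 CPM in cluster 2, a log2 difference of -1.31 ± 0.13 (edgeR adjusted p = 1.17e-20). Transcripts were found in 13 of 15, 25 of 26, 9 of 10 and 22 of 22 cells. Microglia-like cells, which should lack the gene, also had it in 16 of 18 and 5 of 9 cells, so its detection rate carries background and only the level is read here.

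Single cells show that the summed Ptgds difference was not a uniform shift. In cluster 0 the lowest, median and highest cells had 0, 4589 and 11070 CPM on plate 2 and 0, 1125 and 15908 CPM on plate 3. In cluster 2 they had 0, 4992 and 19310 CPM on plate 2 and 3199, 9040 and 15620 CPM on plate 3. The medians were close on plate 2 and far apart on plate 3, and the ranges overlapped on both. The highest microglia-like cell had 1398 CPM on plate 2 and 1635 CPM on plate 3. At or below that level lay 7 of 15 and 14 of 26 cells of cluster 0, against 1 of 10 and 0 of 22 cells of cluster 2. Cluster 0 thus held both cells with Ptgds at the background level and cells as rich in Ptgds as those of cluster 2.

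**Figure D3:**
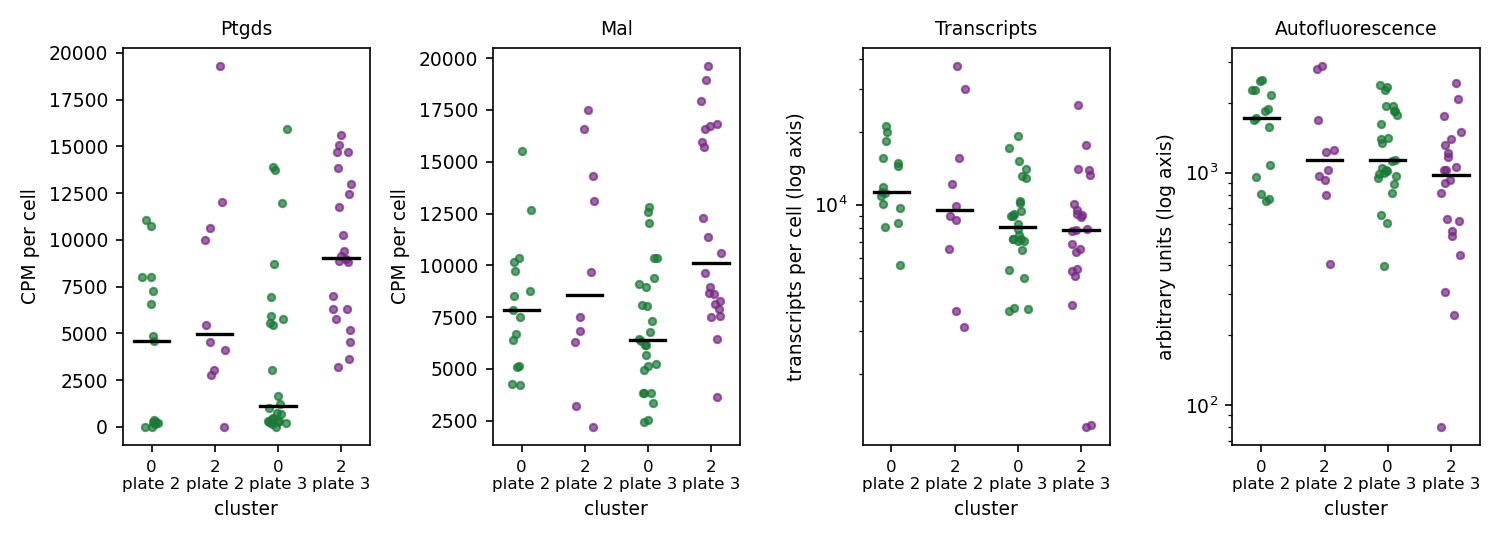
Values of single cells by cluster and plate: Ptgds and Mal in CPM of the cell, transcripts per cell and autofluorescence in arbitrary units (the last 2 on log axes); each point is a cell and black lines are medians. Ptgds in cluster 0 spreads from 0 to 15908 CPM with many cells near 0, and the other 3 measures overlap between the clusters on both plates.

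The sequences just upstream of Enpp6 and Cntn1 are shown because these genes mark opposite sides of the comparison. They are the 250 bases before the RefSeq start of Enpp6 (chr8:46986637-46986886, plus strand) and before the first RefSeq start of Cntn1 (chr15:92050915-92051164, plus strand), build GRCm38.p6, each written 5′ to 3′ along its gene. Capitals would mark a match to the letters searched, and there is none.
Enpp6: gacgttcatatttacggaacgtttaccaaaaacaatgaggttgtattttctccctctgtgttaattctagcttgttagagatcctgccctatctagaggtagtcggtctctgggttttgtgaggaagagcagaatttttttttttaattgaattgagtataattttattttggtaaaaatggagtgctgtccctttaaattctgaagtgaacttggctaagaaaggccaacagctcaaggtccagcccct
Cntn1: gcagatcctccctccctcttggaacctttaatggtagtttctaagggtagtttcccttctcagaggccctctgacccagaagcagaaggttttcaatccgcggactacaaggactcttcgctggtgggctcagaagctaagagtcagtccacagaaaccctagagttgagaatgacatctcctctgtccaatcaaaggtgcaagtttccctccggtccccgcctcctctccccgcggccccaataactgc
The letters searched, on both strands, were ACAAAG (the core bound by SOX factors), CAGCTG (an E-box, the kind of site bound by OLIG and other basic helix-loop-helix factors) and CTGGCAC (a MYRF-type motif). None occurs in the Enpp6 window or in this Cntn1 window. Of all 32851 such windows 4271 hold CAGCTG, against 8 of the 53 windows of called genes higher in cluster 0 (15.1%) and 13 of the 59 windows of those higher in cluster 2 (22.0%). ACAAAG is in 16.5%, 13.2% and 10.2% of the same sets, and CTGGCAC in 4.19%, 5.66% and 3.39%. These shares describe letters only.

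Called genes of the mature oligodendrocyte list lay mostly on the side of cluster 0. The stage lists were chosen with earlier results of these data known, and this list holds Serpinb1a and Ptgds, described above. Of 24 listed names, which include both Sepp1 and its newer name Selenop, 19 genes were tested. Of these, 7 were higher in cluster 0 (Sepp1, S100b, Hapln2, Serpinb1a, Anln, Apod and Trf) and 1, Ptgds, was higher in cluster 2. Called genes were 42.1% of those tested, beside 3.01% of all tested genes. The median over the 19 was 0.06, near the -0.01 of all tested genes, with 12 positive and 7 negative. By its median the list was therefore not higher in cluster 0.

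Sepp1 (now named Selenop; chr15:3268547-3280508), which encodes the selenium carrier selenoprotein P, had the smallest adjusted p among the tested genes. It stood at 1009, 939, 58.7 and 50.9 CPM, a log2 difference of 4.05 ± 0.30 (edgeR adjusted p = 5.13e-38). Cells with a transcript numbered 10 of 15 and 24 of 26 against 4 of 10 and 9 of 22. Microglia-like cells expressed the gene as well, with a median of 1730 and 1174 CPM per cell. Leaving out the 3 cells with over 0.1% of transcripts from the microglia list, 2 of cluster 0 and 1 of cluster 2 on plate 3, left a log2 difference of 4.02.

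S100b, a calcium-binding protein, stood at 189, 246, 0 and 15.3 CPM. Its 94 identifiers in cluster 0 against 3 in cluster 2 gave a ratio of 24.3 (95% exact interval 8.07 to 120.0; edgeR adjusted p = 8.66e-11), with cells numbering 6 of 15 and 11 of 26 against 0 of 10 and 2 of 22. Hapln2, a link protein of the extracellular matrix at nodes of Ranvier, stood at 309, 305, 44.0 and 35.6 CPM, a log2 difference of 2.86 ± 0.40. Anln, for anillin, an actin- and septin-binding protein, stood at 771, 1049, 220 and 229 CPM, a log2 difference of 1.93 ± 0.23. The septin gene Sept8, which codes for a filament protein, was higher in the same cluster at 419, 446, 176 and 173 CPM (log2 1.22 ± 0.27). It was called among 26 tested genes of the cytoskeleton and process growth list, in which no other gene was, beside the 3.01% of all tested genes.

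The abundant mature-cell genes differed less. Apod, for the lipid carrier apolipoprotein D, stood at 2571, 2541, 1126 and 1495 CPM (log2 0.88 ± 0.16). Trf, for the iron carrier transferrin, stood at 6017, 5886, 3125 and 4213 CPM (log2 0.62 ± 0.13), and Fth1, for the ferritin heavy chain, at 8214, 9919, 6097 and 6625 CPM (log2 0.42 ± 0.12), a call lost without the largest cells (adjusted p = 0.158). The iron handling list thus had 2 of 7 tested genes higher in cluster 0 and none higher in cluster 2, with a median of -0.03. These calls were 28.6% of its tested genes, beside 3.01% of all tested genes. Car2, Cryab, Qdpr and Il33, mature-cell genes as well, did not pass the test, at log2 differences of 0.31, -0.31, 0.02 and -0.56. Klk6, a protease of a mature oligodendrocyte state, was too sparse to be tested: its 6 and 29 identifiers in cluster 0, from 3 of 15 and 5 of 26 cells, and 0 in cluster 2 made it at least 9.05-fold higher against a floor of 3 counts over cluster 2.

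**Figure D4:**
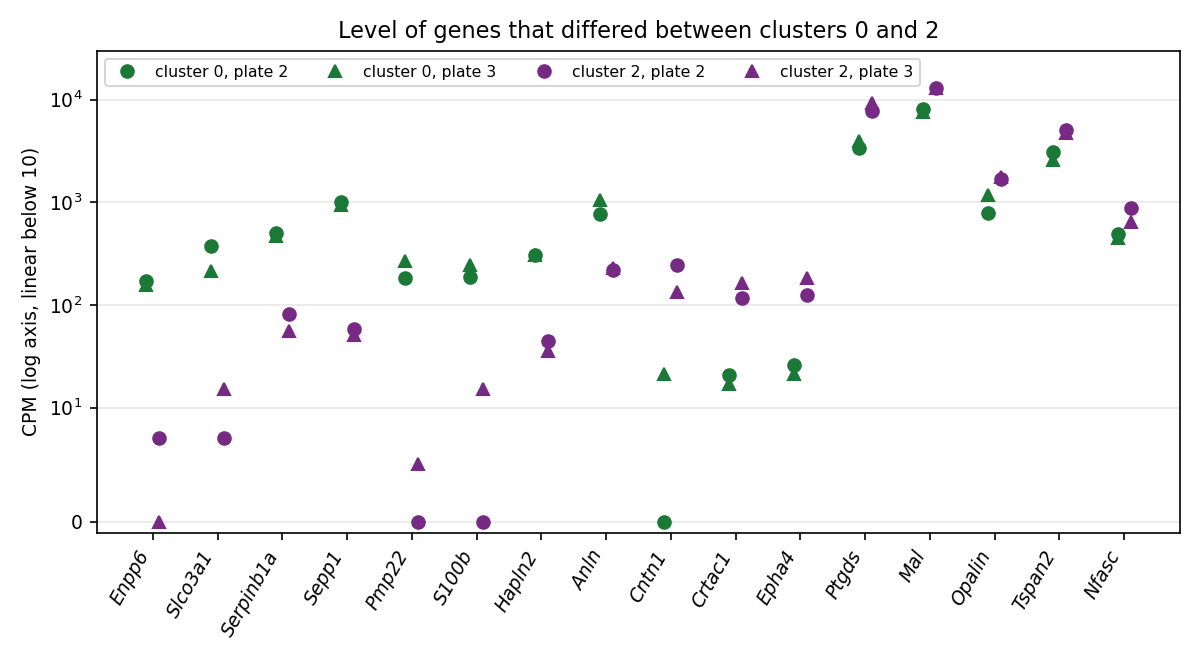
Level in CPM of the summed cells (y axis, logarithmic above 10 and linear below) of 16 genes (x axis), with circles for plate 2 and triangles for plate 3, green for cluster 0 and purple for cluster 2. Enpp6, Slco3a1, Pmp22 and S100b reach at most 15.3 CPM in cluster 2, while Ptgds, Mal and Tspan2 are abundant in both clusters and higher in cluster 2.

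Genes of the myelin-forming stage went the other way where they differed. Of 14 tested, none was called higher in cluster 0 and 4 were higher in cluster 2: Opalin, Mal, Tspan2 and Ctps. That is 28.6%, beside 3.01% of all tested genes. The median was -0.21. Mal, for a raft-associated protein of compact myelin, stood at 8033, 7563, 12865 and 12952 CPM (log2 -0.82 ± 0.12; edgeR adjusted p = 3.73e-09). Tspan2, a tetraspanin, stood at 3058, 2590, 5053 and 4777 CPM (log2 -0.89 ± 0.14), and Opalin, an oligodendrocyte membrane glycoprotein, at 786, 1189, 1700 and 1766 CPM (log2 -0.91 ± 0.17). Ctps, for CTP synthase, stood at 31.4, 33.9, 154 and 91.6 CPM (log2 -1.92 ± 0.53), a call that was lost without the largest cell of each sum (adjusted p = 0.480).

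As with Ptgds, the difference in Mal was smaller in single cells on plate 2. The median cell had 7857 CPM in cluster 0 and 8575 in cluster 2 on plate 2, and 6391 against 10093 on plate 3. Large cells weigh most in a sum. When each cell was weighted equally, the log2 difference of Mal was -0.25 on plate 2 and -0.74 on plate 3, and that of Tspan2 -0.26 and -0.92. For these equal-weight values 10 CPM was added to each mean before the ratio, which shrinks the differences of sparse genes. The log2 differences of the sums did not carry this addition. Computed so, the differences were smaller for Enpp6 (3.03), Sepp1 (3.03), Serpinb1a (2.09), Slco3a1 (3.46), Cntn1 (-2.96) and Ptgds (-1.01), each in the direction of the sums. How much of the fall came from the weights and how much from the added 10 CPM was not computed. With equal weights 96 of the 99 called genes kept their direction on both plates, and the other 3 lost it on plate 2.

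The genes of newly formed cells were divided. Of 8 tested, Enpp6 was higher in cluster 0, and Plekha1 and Nfasc were higher in cluster 2, with a median of -0.15. Calls made up 37.5%, beside 3.01% of all tested genes, a share raised by Enpp6, which was among the markers chosen for parting the clusters. Plekha1, for a phosphoinositide-binding adaptor, stood at 508, 322, 944 and 908 CPM (log2 -1.28 ± 0.20). Nfasc, for neurofascin, an adhesion protein of the junction between axon and glia, stood at 492, 446, 877 and 647 CPM (log2 -0.77 ± 0.20), a call lost without the largest cells (adjusted p = 0.215). Bcas1, another gene of early myelinating cells, stood at 246, 280, 206 and 300 CPM with no call (log2 -0.04). Enpp6 therefore stood apart from the rest of the list that it belongs to.

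Earlier stages were nearly absent from both clusters. None of 12 precursor genes had enough counts to be tested, and Pdgfra, Cacng4, C1ql1, Tnr and Susd5 were at 0 in all 4 sums. Together the precursor genes came to 36.6, 50.9, 22.0 and 86.5 CPM. Of the committed precursor list 2 of 12 genes were tested and Cd9, a tetraspanin that is also a myelin protein, was higher in cluster 2 (log2 -0.89 ± 0.22).

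Summed over each whole list, the stages were close. The mature genes came to 29314 and 30312 CPM in cluster 0 and 25499 and 30252 CPM in cluster 2, a mean log2 difference of 0.10 ± 0.14 (SD over plates, n = 2). The myelin-forming genes differed by -0.16 ± 0.03 and the newly formed genes by -0.39 ± 0.13. The committed precursor genes, of which 2 of 12 had enough counts to be tested, differed by -0.52 ± 0.09. The last 3 were lower in cluster 0 on both plates, while the mature sum was level on plate 3. Both clusters thus carried the sums of myelinating and mature cells and differed in single genes of these lists more than in their totals. The mature total holds Ptgds, an abundant gene called higher in cluster 2 (log2 -1.31), beside 7 genes called higher in cluster 0. Opposite differences thus meet in that total. Cluster 0 had the higher total on both plates although Ptgds was higher in cluster 2 on both. The remaining genes together were therefore higher in cluster 0 on both plates, by an amount that was not computed. Setting aside the only member called higher in cluster 2 favours this.

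**Figure D5:**
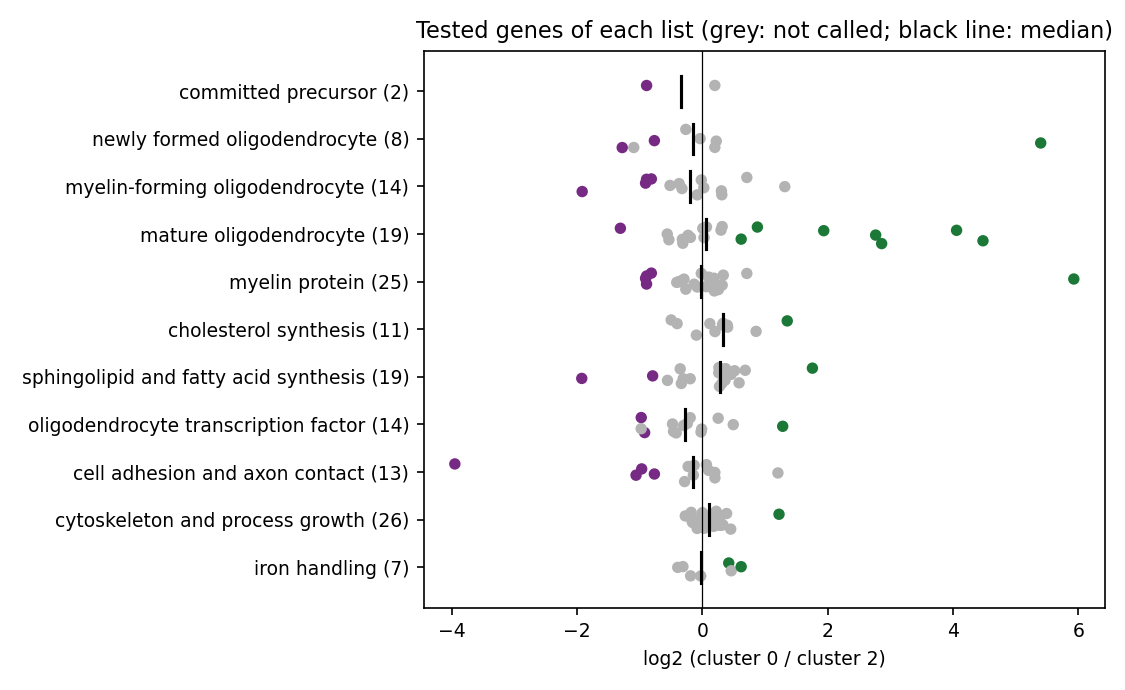
Log2 difference between clusters 0 and 2 (x axis, positive is higher in cluster 0) for the tested genes of 11 lists (y axis, with the number tested), jittered vertically; called genes are green or purple, others grey, and black lines are medians. Called genes of the mature list lie mostly to the right and those of the myelin-forming list to the left, while all list medians lie between -0.35 and 0.32.

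Among 25 myelin protein genes, all tested, Pmp22 alone was higher in cluster 0, and Mal, Opalin, Tspan2 and Cd9 were higher in cluster 2. The median was -0.02, and 20.0% were called, beside 3.01% of all tested genes. Pmp22 (chr11:63128982-63159547) encodes a myelin protein best known from peripheral nerve. It stood at 183, 267, 0 and 5.09 CPM, or 98 identifiers against 1, a ratio of 76.0 (95% exact interval 13.3 to 3033; edgeR adjusted p = 2.83e-13). Cells with it numbered 6 of 15 and 12 of 26 against 0 of 10 and 1 of 22, and microglia-like cells also had it, in 9 of 18 and 5 of 9. Of the major structural genes, Mag differed by -0.13, Cnp by -0.35, Mog by -0.33 and Cldn11 by -0.37 on the log2 scale, none of them called. These leaned toward cluster 2, while Mbp, given above, leaned toward cluster 0. A missing call with 2 plates does not show that levels are equal.

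Contact and adhesion genes that differed were higher in cluster 2. Of 13 tested in that list, Cntn1, Nfasc, Mcam and Lpar1 were called, and none was higher in cluster 0. That is 30.8%, beside 3.01% of all tested genes, a share raised by Cntn1, which was among the markers chosen for parting the clusters. The median was -0.15. The next 4 genes were picked from the largest differences outside the lists, which also held genes of other kinds, such as Synpr and Slc8a3, given below. The guidance receptor gene Epha4 stood at 26.2, 21.2, 125 and 183 CPM (log2 -2.78 ± 0.53). Crtac1, for a secreted cartilage acidic protein, stood at 20.9, 17.0, 118 and 163 CPM (log2 -2.96 ± 0.57), and Kirrel3, for an adhesion protein of the immunoglobulin superfamily, at 10.5, 25.4, 162 and 76.3 CPM (log2 -2.63 ± 0.61). Prickle1, a planar polarity gene, stood at 178, 102, 529 and 336 CPM (log2 -1.72 ± 0.28). For each of these 4 genes the higher cluster 0 sum lay below the lower cluster 2 sum, which their choice by large called differences favours. How many of all tested genes had sums apart in this way was not computed. Among the 4, DESeq2 called only Prickle1.

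Lipid synthesis genes showed few calls in number. Called were 9.09% of tested genes of cholesterol synthesis and 15.8% of sphingolipid and fatty acid synthesis, beside 3.01% of all tested genes. Of 11 tested genes of cholesterol synthesis, Idi1, for isopentenyl diphosphate isomerase, was higher in cluster 0 at 210, 161, 88.1 and 50.9 CPM (log2 1.35 ± 0.41; edgeR adjusted p = 0.0405), 8 of the 11 had positive differences, and the median was 0.32. Idi1 lost its call without the plate block (edgeR adjusted p = 0.0536), by DESeq2, with no filter on low counts and after thinning. The call was also lost without cells with microglia transcripts and without cells of high mitochondrial share. Of 19 tested genes of sphingolipid and fatty acid synthesis, the fatty acid elongase gene Elovl5 was higher in cluster 0 at 445, 412, 66.1 and 163 CPM (log2 1.75 ± 0.29). The desaturase genes Degs1 and Fads1 were higher in cluster 2, with log2 differences of -0.80 ± 0.20 and -1.93 ± 0.59. Scd2, Ugt8a and Fa2h, the most abundant genes of the list, did not pass the test.

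Of 14 tested transcription factors of the lineage, Etv1 was higher in cluster 0 and Tcf4 and Klf13 were higher in cluster 2. The median was -0.27, with 11 negative differences, and 21.4% were called, beside 3.01% of all tested genes. Etv1, an ETS family factor, stood at 498, 535, 140 and 255 CPM (log2 1.28 ± 0.26). Tcf4, a basic helix-loop-helix partner factor, stood at 377, 458, 877 and 698 CPM (log2 -0.98 ± 0.21). Sox10, which keeps the oligodendrocyte identity, stood at 2156, 2084, 1274 and 1556 CPM and just missed the threshold (log2 0.49 ± 0.16; edgeR adjusted p = 0.0559). Olig1 at 1269, 1261, 1684 and 1644 CPM and Myrf, the master regulator of myelin genes, did not pass either.

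Beside the 3.01% called among all tested genes, no gene was called among 12 tested of glycolysis and lactate, 16 chaperones, 30 proteasome subunits, 66 cytosolic ribosomal proteins and 2 of the dissociation response, whose medians ran from -0.20 to 0.25. Of 26 lysosomal genes Plin3, a lipid droplet protein gene, was higher in cluster 0 and Ctsa, for cathepsin A, was higher in cluster 2.

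Features that track RNA quality moved with cluster 2. Rn45s, the ribosomal RNA precursor, stood at 19299, 23372, 28578 and 29135 CPM (log2 -0.53 ± 0.11), and mt-Rnr2, a mitochondrial ribosomal RNA, at 18753, 16855, 23876 and 21857 CPM (log2 -0.45 ± 0.11). The call of Rn45s was lost without the largest cell of each sum (log2 -0.28, adjusted p = 0.135), its difference was -0.15 with equal weights, and it was 0.045 without plate 2. That of mt-Rnr2 was lost by DESeq2 and without the plate block. All 12 tested protein-coding genes of the mitochondrial genome were negative, with a median of -0.30 and no call. The deposited percent of mitochondrial transcripts had medians of 2.31% and 2.10% in cluster 0 and 2.62% and 2.69% in cluster 2. Over 15% of transcripts from the mitochondrial protein-coding genes was found in 1 of 15, 1 of 26, 4 of 10 and 2 of 22 cells. Without these 8 cells 75 genes were called, 37 and 38 in the 2 directions, all of them among the 99, and Rn45s and mt-Rnr2 were no longer called. Without the ribosomal RNA features 97 were called. Their part in the other calls was not tested further.

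Depth was similar and autofluorescence overlapped. Median transcripts per cell were 11265 and 9461 on plate 2 and 8108 and 7891 on plate 3, a ratio of 1.19 and 1.03. Autofluorescence, the measure named in the study's title, was not among the values that drew the clusters. Its lowest, median and highest values in cluster 0 were 757, 1713 and 2513 arbitrary units on plate 2 and 394, 1127 and 2383 on plate 3. In cluster 2 they were 405, 1127 and 2880 on plate 2 and 80.3, 977 and 2419 on plate 3. Cluster 0 had the higher median on both plates, by 1.53-fold and 1.15-fold, a mean log10 difference of 0.123 ± 0.0857 (SD, n = 2 plates). An exact permutation test that flips the sign of each plate, two-sided, gave p = 0.5, the smallest that 2 plates allow, so the design cannot show a difference. The microglia-like cells stood higher, with medians of 5397 and 3950 units. The authors' phase call was G0 for all cells of both clusters except 1 cell of cluster 2 on plate 3, called G1.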

How the data were processed

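Each of the 3 samples is 1 SORT-seq plate. The deposited table holds estimated counts of transcripts for 16178 genes in 149 cells. Converted back by the usual correction over 4096 identifiers, 100% of its 349688 values above 0 were whole identifier counts within 1e-06. The submitters' processing notes list the builds hg19 and mm10, Seurat 4.1.1, R 4.2.0 and BWA 0.7.15, with no role given. Autofluorescence intensity, the percent of mitochondrial transcripts, cell cycle scores, phase and cluster numbers are the authors' deposited values. The deposited percent counts mitochondrial ribosomal and transfer RNA genes and leaves out the protein-coding ones. In the table per cell 7 columns of values were not used. The last digit of the library name was taken as the plate.

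Transcripts were summed per plate and cluster, rounded to whole counts and fitted with edgeR 4.0.16 in R 4.3.3 (TMM, its filter on low counts with a minimum of 10, plate as a block, quasi-likelihood F test, Benjamini-Hochberg at 0.05). Every cluster was measured on both plates, so the plate pairs the sums by construction. With 1 residual degree of freedom per gene the spread is largely shared over genes. SE is that of the log2 difference. DESeq2 1.42.0 was an alternative. Shares of cells carry exact 95% binomial intervals for counting error only. Named genes are the 5 markers, the 15 largest called differences each way, the called and the 3 most abundant genes of each list, and the 5 most abundant genes per cluster; other genes, such as Klk6, Slc1a3, Bcas1 and those of the closing section, were chosen after their values were seen. The members and lists were chosen with earlier results of these data known. No doublet caller was run. Kept cells of plates 2 and 3 share 27 well barcodes, with no identical profile. No source used here gives the strand setting of the counting; 45 of 96 called genes placed in the annotation are overlapped by a gene on the other strand, and reads of such pairs cannot be told apart. Alternatives are given in the closing section.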

Additional observations from a re-analysis of the deposited data

How the results depend on the processing

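The number of called genes depended on the fit, and the direction seldom did. Of the 99 called genes, 98 stayed called with RLE size factors and 84 (38 and 46 by direction, higher in cluster 0 first) without the replicate block, that is, without plate in the fit. In all, 65 genes were called with no filter on low counts (33 higher in cluster 2; 60 of them among the 99), 47 with cells thinned to equal depth (21 and 26; 37 among the 99), 23 with plate 1 added (11 and 12; 22 among the 99), 18 by DESeq2 (9 and 9) and 9 with all clusters in the fit (7 and 2), the last 2 sets all among the 99. Leaving out plate 2 or plate 3, in the fit over all clusters and with the lone sum assumed to vary like the others, left 1 call, Sepp1, each time (1 higher in cluster 0, 0 in cluster 2), beside 414 genes at an unadjusted p under 0.05 in the comparison of both plates. Only Rn45s (log2 from -0.30 to 0.045 over the plates left out) and Mir5109 (from -0.62 to 0.24) reversed, both without plate 2, where the median of all genes moved to 0.13. The cause of these losses was not tested, except that thinning, the added plate and the loss of plate 2 leave fewer of the called genes with a value (84, 83 and 81), Enpp6 and Cntn1 having none without plate 2. Chosen after seeing the data were the alternatives without the largest cell of each sum (68 called, 29 of them higher in cluster 0 and 58 among the 99), without cells with microglia transcripts (99 called, 93 among the 99), without cells of high mitochondrial share (75, all among the 99) and without ribosomal RNA features (97, of which 96 among the 99).

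The mean log10 difference in autofluorescence ranged from 0.062 to 0.184 over its alternatives. That of transcripts per cell was 0.227 with plate 1 added. The myelin-forming sum differed by -0.075 after thinning. At 3000 identifiers the shares of cells differed by 26.8 percentage points for Enpp6, 37.6 for Slco3a1, 44.0 for Serpinb1a, -27.0 for Cntn1 and -16.5 for Ptgds, whose unthinned difference was -3.59. With 2 plates and 10 cells in the smallest sum, genes under about 100 CPM rest on few transcripts.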

Other observations

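Called genes outside the lists, chosen after their values were seen, are given here one by one. Gng11, for a G protein gamma subunit, stood at 341, 386, 36.7 and 56.0 CPM (log2 2.84 ± 0.37; edgeR adjusted p = 1.16e-11) and was detected in 15 of 15 and 23 of 26 cells of cluster 0 against 3 of 10 and 5 of 22 of cluster 2. Gnai1, for an inhibitory alpha subunit, stood at 440, 386, 147 and 122 CPM (log2 1.53 ± 0.29), and Rasgrp3, for a Ras exchange factor, at 210, 225, 88.1 and 91.6 CPM (log2 1.18 ± 0.37). The call of Rasgrp3 was lost without the largest cell of each sum. Glul, for glutamine synthetase, stood at 1365, 1616, 551 and 948 CPM (log2 0.92 ± 0.18).

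Hcn2, for a channel opened by hyperpolarization, had 51 identifiers in cluster 0 and 2 in cluster 2, a ratio of 19.8 (95% exact interval 5.20 to 168), in 7 of 15 and 11 of 26 cells against 1 of 10 and 1 of 22. Slc8a3, for a sodium-calcium exchanger, was higher in cluster 2 at 47.1, 38.2, 309 and 102 CPM (log2 -2.20 ± 0.45), and Synpr, for a synaptic vesicle protein, at 10.5, 25.4, 125 and 127 CPM (log2 -2.82 ± 0.59). Ank3, for ankyrin G, which anchors channels and neurofascin, was higher in cluster 2 at 461, 552, 972 and 785 CPM (log2 -0.86 ± 0.20).

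The 4 cells of plate 1 that carry these cluster numbers had no transcript of Enpp6, Slco3a1 or Serpinb1a. The single cell of cluster 0 had 20673 transcripts, with 3 of Cntn1, 5 of Pmp22, 4 of Hapln2 and 15958 CPM of Ptgds. The 3 cells of cluster 2 had 1993, 5284 and 17064 transcripts and 502, 22656 and 13560 CPM of Ptgds; the first had no transcript of Mbp or Mal. On plate 1 the cluster 0 cell thus had Cntn1 and none of the 3 genes found in every cluster 0 cell of plates 2 and 3 in some combination.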
